A study of Mus musculus with 9 samples.

Results

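The genes described here are the receptors through which vitamin D and retinoic acid act on transcription, and the hydroxylases that make or remove these ligands: *Vdr*, *Rxra*, *Rxrb*, *Rara*, *Rarb*, *Rarg*, *Cyp24a1*, *Cyp27b1* and *Cyp26b1*. The 9 genes were selected by name from the 55416 genes counted, and all 9 were found. No expression threshold entered the choice, but the list was drawn up with earlier results of these same counts in view. Fold changes and adjusted p-values of these genes therefore describe their place in a fit over all genes and are not independent evidence.

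The cells were MC3T3-E1, a clonal pre-osteoblast line from mouse calvaria of wild-type genotype, so all libraries come from a single clone. All cultures, Control included, had been differentiated in αMEM with fetal bovine serum, ascorbic acid, dexamethasone and β-glycerophosphate (BGP), and the protocols name no added vitamin D metabolite or retinoid. The labels give BGP in that medium up to the treatment, whereas the methods of the study take it out some days earlier. Whether Control stands for continued or for withdrawn BGP is therefore not settled, and this holds for every fold against Control. Control cells then received no further phosphate, BGP cells received 4 mM of this organic phosphate donor, and NaHPO4 cells received 4 mM of inorganic sodium phosphate (Na2HPO4/NaH2PO4), each for 16 h until harvest at day 28. Polyadenylated RNA was sequenced in 3 libraries per condition. The labels do not say whether the 3 libraries came from separate cultures, so p-values measure the spread between these libraries, which may be technical.

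The vitamin D receptor and the retinoic acid receptors are nuclear receptors that sit on DNA as pairs with a retinoid X receptor (RXR). The active vitamin D hormone, made by Cyp27b1, binds Vdr, and Cyp24a1, the enzyme that breaks the hormone down, is among the genes that liganded Vdr induces most strongly. Retinoic acid binds Rara, Rarb and Rarg, is cleared by the Cyp26 enzymes, and induces *Rarb* itself. In osteoblasts, vitamin D signalling is known for its effects on matrix and mineralisation genes and on *Fgf23*, the phosphate-regulating hormone of bone.

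Total counts per library lay between 21390839 and 28234404, and 13679 genes had enough counts to be tested. Of the 14 osteoblast and osteocyte markers looked up, 14 were expressed highly enough to be tested, and their summed level was 97512 to 117291 CPM over the 9 libraries, where CPM is the share of a library's counts scaled to 1000000. Markers of other lineages were partly present. Of 10 chondrocyte markers 8 were tested, with *Col2a1* at 142 to 403 CPM, *Col11a2* at 381 to 700 CPM, *Hapln1* at 231 to 274 CPM and *Sox9* at 34.4 to 43.3 CPM, while *Acan* had 3 counts in all libraries together. Of 10 adipocyte markers 3 were tested, *Plin4*, *Fabp4* and *Cebpa*, each at 9.75 to 25.3 CPM, while *Plin1* had 3 counts. Of 8 endothelial markers 2 were tested, *Flt1* at 44.2 to 52.1 CPM and *Vwf* at 1.97 to 2.46 CPM, while *Cdh5* had 2 counts. Of 10 macrophage and osteoclast markers 3 were tested, *Ctsk* at 249 to 295 CPM and *Csf1r* and *Cd68* near 1 CPM, while *Ptprc* had 1 count. CPM values were scaled for library composition by TMM throughout, with the SD over 3 libraries as error.

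*Vdr*, which lies on chromosome 15 from 97752306 to 97808511 on the minus strand (GRCm39), had the largest log2FC between the phosphate sources among the 7 tested genes. Control libraries had 129, 121 and 144 CPM, BGP libraries had 165, 164 and 144 CPM, and NaHPO4 libraries had 107, 108 and 108 CPM. Every NaHPO4 library was below every Control and BGP library, whereas the lowest BGP library met the range of the Control libraries. The means were 131 ± 11.9 CPM in Control, 158 ± 11.5 CPM in BGP and 108 ± 0.492 CPM in NaHPO4 (SD, n = 3 each), from 2755 to 3668 counts per library.

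Against Control, *Vdr* rose with BGP by a log2 fold change (log2FC) of 0.26 (95% confidence interval 0.16 to 0.36, or 19.8%), with an FDR of 0.000585 in edgeR's quasi-likelihood test over all tested genes. With NaHPO4 it fell, at a log2FC of -0.29 (interval -0.39 to -0.19, FDR 6.73e-05 in the same edgeR fit). Set directly against each other, BGP was 1.46-fold above NaHPO4 (log2FC 0.55 ± 0.0479 (SE), FDR 2.24e-10 in edgeR). This was a differentially expressed gene (DEG), a term that required an FDR under 0.05 together with a log2FC beyond 0.5 in size. The other two comparisons share the Control libraries and stayed under that fold limit.

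In the window around a *Vdr* transcription start annotated by RefSeq, the first 230 bases run up to the first base annotated as *Vdr* exon by GENCODE M39. They lie at chr15:97806198-97806427 on the minus strand of GRCm39. The stretch is intronic to 3 of the 8 transcripts of the gene, which begin further upstream. *Gm62301*, a long non-coding RNA on the other strand, shares 124 bases with exons of *Vdr*. The stretch is shown because *Vdr* was the DEG, and the capitals mark GC boxes (GGGCGG, searched on both strands), of which it holds 3.

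Vdr upstream stretch: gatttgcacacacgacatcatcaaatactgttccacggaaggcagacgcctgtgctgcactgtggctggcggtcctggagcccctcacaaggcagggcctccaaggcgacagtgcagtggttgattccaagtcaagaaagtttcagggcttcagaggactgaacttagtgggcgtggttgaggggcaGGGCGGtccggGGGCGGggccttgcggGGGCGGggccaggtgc

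A GC box was present in 35.7% of 32851 promoter windows of the same kind, which span 250 bases before to 50 bases after a RefSeq start, so its presence is common.

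*Cyp26b1*, which encodes a hydroxylase that clears retinoic acid, lies on chromosome 6 from 84548396 to 84570890 on the minus strand. Its Control libraries had 73, 69.3 and 73.1 CPM, its BGP libraries 90.4, 73.7 and 90.6 CPM, and its NaHPO4 libraries 54.4, 61.4 and 64.8 CPM. All BGP libraries were above all Control libraries and all NaHPO4 libraries were below them, although the second BGP library exceeded the highest Control library by little. The means were 71.8 ± 2.18, 84.9 ± 9.72 and 60.2 ± 5.27 CPM, in the order Control, BGP and NaHPO4.

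*Cyp26b1* rose with BGP (log2FC 0.24 ± 0.0584 (SE), FDR 0.0145 in edgeR) and fell with NaHPO4 (log2FC -0.25 ± 0.0592, FDR 0.00416 in edgeR). The call for BGP was lost without Control library 2, where the log2FC was 0.22 and the FDR 0.0824, without BGP library 1 (0.20 and 0.151), without BGP library 3 (0.19 and 0.126) and in DESeq2 (0.24 and 0.243). The call for NaHPO4 was lost without NaHPO4 library 1 (log2FC -0.19, FDR 0.0575) and in DESeq2 (-0.25 and 0.1). In the direct comparison BGP was 1.41-fold above NaHPO4 (log2FC 0.497, FDR 1.88e-07 in edgeR). This lay just under the fold limit of a DEG, while *Vdr* at 0.55 lay just over it. *Cyp26b1* passed that limit when BGP library 2, NaHPO4 library 2 or NaHPO4 library 3 was left out, which made 2 DEGs in place of 1.

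The 152 bases before the annotated first exon of *Cyp26b1*, at chr6:84570891-84571042 on the minus strand of GRCm39, are shown as the counterpart of the *Vdr* stretch. Capitals mark 2 GC boxes, the first of them read on the other strand as CCGCCC, and a TATA box (TATAAA).

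Cyp26b1 upstream stretch: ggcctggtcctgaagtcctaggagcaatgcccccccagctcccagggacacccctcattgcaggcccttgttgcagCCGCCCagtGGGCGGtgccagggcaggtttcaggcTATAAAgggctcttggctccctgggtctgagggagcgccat

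A TATA box, searched on both strands, was present in 13.6% of the promoter windows, and the *Vdr* window held none.

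*Cyp24a1* and *Rarb*, genes that vitamin D and retinoic acid are known to induce, were close to absent in all conditions. *Cyp24a1* had 0 counts in 8 of 9 libraries and 3 counts in BGP library 1. *Rarb* had 0 counts in every Control and BGP library, and 3, 0 and 1 counts in the NaHPO4 libraries. Neither gene passed the filter on low counts, and neither exceeded 3 counts in a library, the limit that a count of 0 allows, which corresponded to 0.106 to 0.14 CPM of the total counts. No fold is given for either, and a difference between conditions was not detectable at this depth. That limit covers counting error only.

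The promoter windows of the 9 genes were searched for direct repeats, the arrangement on which RXR pairs are known to bind. A half-site read AGGTCA, in which the first base could also be G, the third T and the fifth G, and 2 half-sites had to lie on one strand, either one, with 3, 4 or 5 bases between them (DR3, DR4, DR5). RefSeq gave 14 windows for 8 of the genes, and all 14 were found once in GRCm39. *Cyp24a1* had no window in the table used. Only the *Rarb* window held a direct repeat, a DR5 at chr14:5894234-5894250 on the plus strand. It lies before the RefSeq start and within an exon of 13 of the 21 annotated transcripts.

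Rarb DR5, half-sites in capitals: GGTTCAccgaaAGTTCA

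A DR5 was present in 0.323% of all promoter windows, a DR4 in 0.298% and a DR3 in 0.256%. A match describes letters only, and the windows without one leave more distant sites unsearched.

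The hormone-making enzyme *Cyp27b1* was measured at a low level. Its libraries held 38, 58 and 59 counts in Control, 47, 60 and 48 in BGP, and 57, 85 and 68 in NaHPO4, or 2.21 ± 0.387, 2.29 ± 0.35 and 2.57 ± 0.46 CPM. The conditions overlapped in every comparison. The log2FC of NaHPO4 against Control was 0.21 with an interval from -0.21 to 0.64 (FDR 0.644 in edgeR). For BGP against Control it was 0.05 with an interval from -0.40 to 0.50 (FDR 0.954 in edgeR). A change within these intervals was not detectable at this depth.

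**Figure D1:**
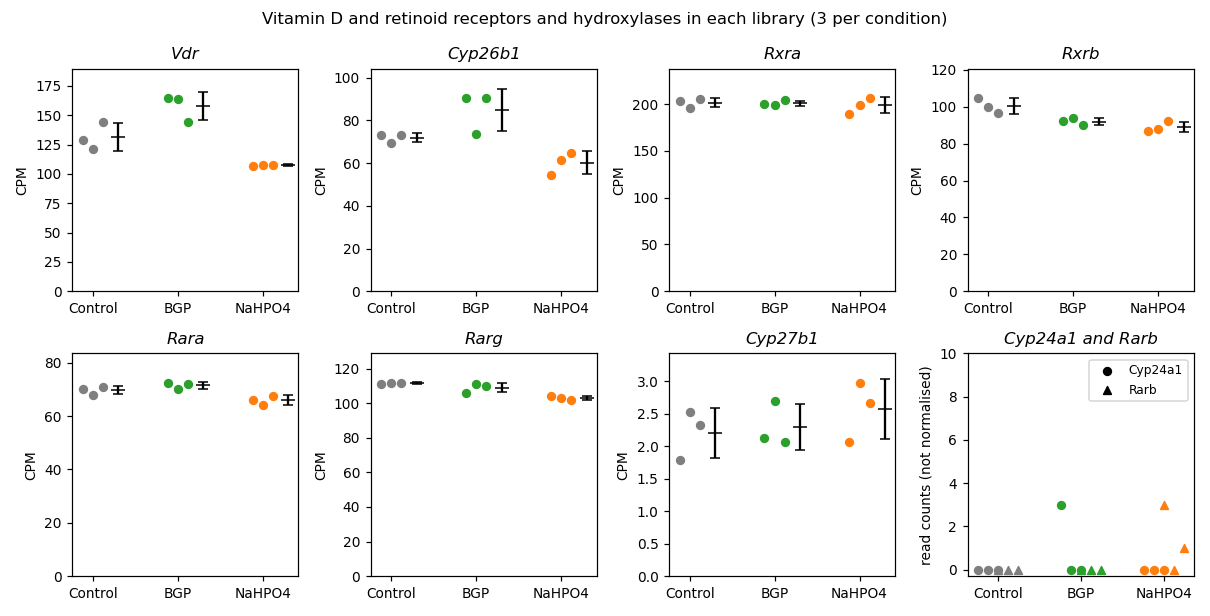
Level of each gene in each library, with CPM on the y axis for 7 genes (read counts for Cyp24a1 and Rarb) and the 3 conditions on the x axis; points are libraries, and black bars show mean and SD of 3 libraries. Vdr in NaHPO4 sits at 107 to 108 CPM, below all other libraries, Rxra stays between 190 and 207 CPM throughout, and neither Cyp24a1 nor Rarb exceeds 3 counts.

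Among the RXRs, the common partners of both receptor families, *Rxra* had nearly the same level in all conditions. It had 203, 196 and 205 CPM in Control, 200, 199 and 204 CPM in BGP, and 190, 199 and 207 CPM in NaHPO4, and the conditions overlapped. The log2FC against Control had an interval from -0.07 to 0.07 with BGP and from -0.09 to 0.05 with NaHPO4. The FDR for NaHPO4 was 0.85 in edgeR.

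*Rxrb* had 105, 100 and 96.4 CPM in Control, 92.2, 93.9 and 89.9 CPM in BGP, and 87, 88.2 and 92.3 CPM in NaHPO4. Both treated groups lay wholly below Control and overlapped each other. It fell with NaHPO4 (log2FC -0.17 ± 0.0404 (SE), FDR 0.00452 in edgeR), a call that was lost without Control library 1 (-0.14 and FDR 0.066). With BGP the log2FC was -0.13 and did not pass (FDR 0.101 in edgeR). The treatments set against each other gave 0.05 (FDR 0.644 in edgeR), so *Rxrb* was not shown to differ between them. *Rxrg*, the RXR of muscle and brain, had 0 counts in every library.

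Of the retinoic acid receptors, *Rarg* was at 111, 112 and 112 CPM in Control, 106, 111 and 110 CPM in BGP, and 104, 103 and 102 CPM in NaHPO4, with every NaHPO4 library below every other library. It fell with NaHPO4 by a small amount (log2FC -0.12 ± 0.0368 (SE), FDR 0.0368 in edgeR). That call held in 9 of 16 alternative analyses, and the highest FDR was 0.112. It was lost without any 1 of the 3 Control libraries (FDR 0.093, 0.0798 and 0.107), without NaHPO4 library 2 (0.112) or 3 (0.0978), with total counts in place of TMM (0.109) and with no filter on low counts (0.0715).

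*Rara* had 68 to 71.1 CPM in Control, 70.1 to 72.6 CPM in BGP and 64 to 67.7 CPM in NaHPO4. The NaHPO4 libraries lay below the others, but no comparison passed the test (FDR 0.76, 0.283 and 0.097 in edgeR for BGP against Control, NaHPO4 against Control and BGP against NaHPO4). The interval of the log2FC between BGP and NaHPO4 was 0.03 to 0.21, without adjustment for the number of genes.

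**Figure D2:**
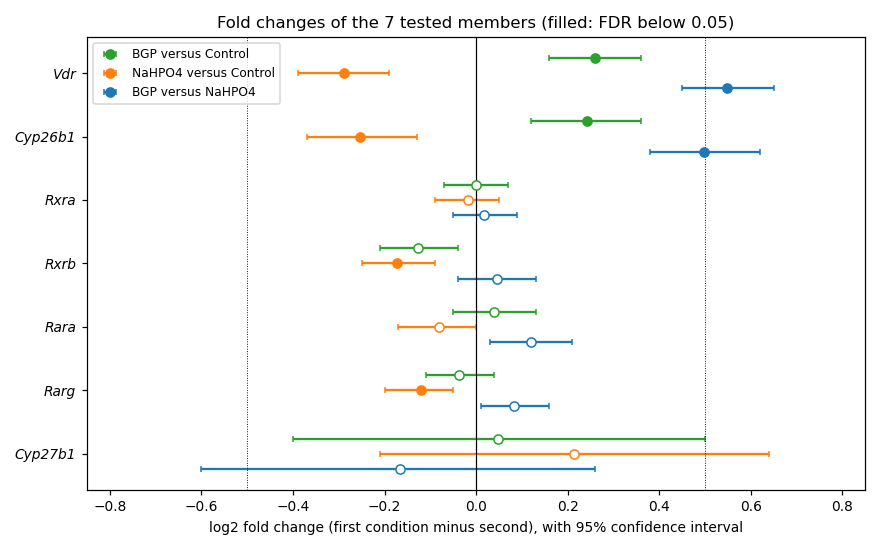
Log2 fold change of the 7 tested genes in the 3 comparisons (x axis) with 95% confidence intervals from the edgeR fit; filled points have an FDR below 0.05 and dotted lines mark the fold limit of a DEG. Vdr at 0.55 in BGP versus NaHPO4 is past the dotted line and Cyp26b1 at 0.497 is just inside it, while Cyp27b1 has the widest intervals.

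For BGP against Control, 2 of the 7 tested genes rose (*Vdr* and *Cyp26b1*) and 0 fell, where 1.86% of all tested genes rose, 0.665% fell and 2.53% passed in either direction. None of the 7 was a DEG (0.556% of all tested genes), and libraries did not overlap for 3 of the 7 (18.5% of all). For NaHPO4 against Control, 4 of 7 fell (*Vdr*, *Cyp26b1*, *Rxrb* and *Rarg*) and 0 rose, beside 3.95% of all genes that fell, 3.43% that rose and 7.38% in either direction. Again 0 were DEGs (0.716% of all), and 5 of 7 did not overlap (23.2% of all). For BGP against NaHPO4, 2 of 7 were higher and 0 lower, beside 3.33% and 2.05% of all genes, or 5.38% in either direction. Of the 7, 1 was a DEG (0.585% of all) and 4 did not overlap (21.2% of all). The median log2FC of the 7 genes was 0.04, -0.12 and 0.08 in these comparisons, beside 0.00 over all tested genes. Since earlier results of the same contrasts were known when the list was drawn up, nothing is read from these counts. Scaling by total counts in place of TMM turned the balance over all genes with NaHPO4 from 469 higher and 540 lower to 777 higher and 413 lower. For BGP against NaHPO4 it turned 456 higher and 280 lower into 322 and 494. *Vdr* and *Cyp26b1* kept their direction and their calls in all 3 comparisons under that scaling.

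To compare genes with each other, CPM was divided by the length of all annotated exons of the gene. Which transcripts were expressed was not resolved, so the order of genes with similar levels may depend on this length. The SD does not cover that. In Control, *Rxra* was highest at 29.3 ± 0.678 CPM per kb. *Rarg* (24.2 ± 0.118), *Rxrb* (23.3 ± 0.986) and *Vdr* (22.9 ± 2.07) followed, and neighbours among these overlapped between libraries. *Cyp26b1* (12.6 ± 0.383) and *Rara* (11.1 ± 0.255) were next and did not overlap each other, and *Cyp27b1* was far lower at 0.858 ± 0.15 CPM per kb.

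The place of *Vdr* in this order moved with the phosphate source. With BGP it was second only to *Rxra*, at 27.4 ± 2 CPM per kb and above *Rarg* at 23.5 ± 0.57. With NaHPO4 it came after *Rxra*, *Rarg* and *Rxrb*, at 18.8 ± 0.0857 against 20.7 ± 0.637 for *Rxrb*, and neither step had overlapping libraries. The summed level of *Rxra* and *Rxrb* per kb was 2.31 ± 0.206 times that of *Vdr* in Control, 1.85 ± 0.137 times in BGP and 2.64 ± 0.0943 times in NaHPO4 (SD, n = 3). The shifts in these ratios rest mostly on *Vdr*, because the sum itself was 52.6, 50.6 and 49.6 CPM per kb. The size of the ratios, like the order of the genes, depends on the exon lengths used.

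**Figure D3:**
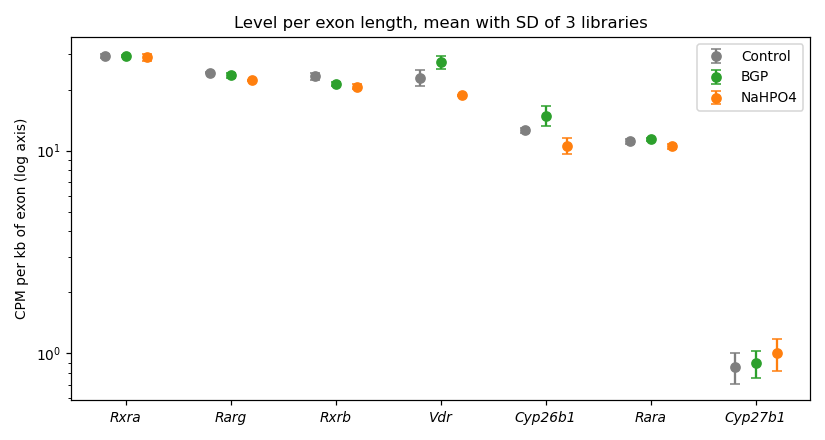
Level per kb of exon on a log axis (y) for the 7 genes above the filter on low counts, ordered by their Control level; points are means and bars SDs of 3 libraries. Vdr moves from 22.9 CPM per kb in Control to 27.4 with BGP and 18.8 with NaHPO4, whereas Rxra stays between 28.9 and 29.3.

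The genes whose log2 CPM followed *Vdr* most closely over the 9 libraries, measured by Pearson's r as a description, were *Bglap2* (0.974), *2900026A02Rik* (0.967), *Apc2* (0.961), *Pmepa1* (0.959) and *Errfi1* (0.957). *Bglap2*, an osteocalcin gene, had 405, 433 and 366 CPM in Control, BGP and NaHPO4. *Apc2* was below 1 CPM. An r of 0.9 or more was reached by 44 genes, and all points share their libraries and conditions. Of the other receptors and hydroxylases, *Rara* (0.863) and *Cyp26b1* (0.823) were the closest and *Cyp27b1* (-0.232) the most distant.

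Some of the osteoblast and osteocyte markers moved beside these genes. The summed level of the list was 110212 to 117291 CPM in Control, 107672 to 113805 CPM in BGP and 97512 to 104375 CPM in NaHPO4. This sum consisted mostly of *Col1a1* and *Col1a2* (means of 43285 and 56380 CPM in Control), so it does not stand for the list. With NaHPO4, 6 of 14 markers fell (*Alpl*, *Col1a1*, *Col1a2*, *Bglap*, *Bglap2* and *Sost*) and *Dmp1* rose. The other 7, *Runx2* and *Ibsp* among them, did not pass. Of all tested genes, 3.95% fell and 3.43% rose with NaHPO4. With BGP, *Dmp1*, *Phex* and *Fgf23* rose and 0 fell, beside 1.86% and 0.665% of all tested genes. Between BGP and NaHPO4, 8 of 14 were higher with BGP and 0 lower, beside 3.33% and 2.05% of all tested genes. These were *Sp7*, *Col1a1*, *Col1a2*, *Bglap*, *Bglap2*, *Dmp1*, *Sost* and *Fgf23*. The *Sp7*, *Col1a2* and *Sost* calls did not hold in every alternative. Summed chondrocyte markers were also lower in NaHPO4 (889 to 973 CPM) than in Control (1138 to 1266 CPM) and BGP (1185 to 1304 CPM). Of the 8 tested, *Col2a1*, *Col11a2* and *Comp* fell with NaHPO4 and *Hapln1* rose (235 to 267 CPM, log2FC 0.18, FDR 0.000202 in edgeR). The *Col2a1* call was lost in DESeq2. With NaHPO4 the sum followed *Col11a2* (664 CPM in Control, 430 CPM in NaHPO4) and *Col2a1* (242 and 177 CPM), so it does not stand for the list. Summed macrophage and osteoclast markers were 250 to 263 CPM in NaHPO4, 276 to 287 CPM in BGP and 290 to 297 CPM in Control, a sum that consisted almost wholly of *Ctsk* (means of 255, 281 and 292 CPM), the cathepsin K gene, so that it does not stand for the list. Summed adipocyte markers were 37.4 to 43.1, 45.3 to 46.2 and 45.7 to 56.5 CPM in the same order. Of the 3 tested, only *Plin4* passed with NaHPO4, where it fell from 22 to 15.8 CPM (FDR 0.000305 in edgeR). *Fabp4* (FDR 0.313) and *Cebpa* (FDR 0.0714) did not pass, so this sum does not stand for the list. The part of these shifts in the levels of *Vdr* and the other receptors was not tested, and in bulk RNA fewer cells of a kind and less RNA per cell cannot be told apart.

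Among genes that supply vitamin D or carry it into cells, 6 of 10 were expressed highly enough to be tested. The 25-hydroxylase gene *Cyp2r1* and *Gc*, the plasma carrier, had 0 counts in every library. *Pdia3*, a protein disulfide isomerase that is also described as a membrane binding protein for the hormone, was the one gene of this list that changed: it was at 545 CPM in Control, 553 CPM in BGP and 639 CPM in NaHPO4. It rose with NaHPO4 (log2FC 0.23, FDR 5.76e-06 in edgeR) without overlap, opposite in direction to *Vdr*, and with BGP it gave 0.02 (FDR 0.844).

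Of 24 genes known to respond to liganded Vdr in bone, kidney or gut, 17 were tested. With BGP 7 rose and 2 fell, with NaHPO4 5 rose and 4 fell, and between BGP and NaHPO4 7 were higher and 3 lower with BGP. Of all tested genes, 1.86% rose and 0.665% fell with BGP, and 3.43% rose and 3.95% fell with NaHPO4. Between BGP and NaHPO4, 3.33% were higher and 2.05% lower. The same shares stand beside the counts of the lists below. The lists were drawn up with earlier results known and set no direction of response, so nothing is read from these counts. The median log2FC of the 17 genes was 0.10, 0.08 and 0.11 in these comparisons, beside 0.00 over all tested genes. *Spp1*, *Enpp1*, *Enpp3*, *Ank* and *Tnfrsf11b* rose with both treatments. *Spp1*, the gene of osteopontin, was at 1736 CPM in Control, 4839 CPM in BGP and 6786 CPM in NaHPO4. *Enpp1*, which makes pyrophosphate, was at 7.57, 47.2 and 29.3 CPM, and *Ank*, which exports it, at 81.4, 253 and 176 CPM. *Tnfrsf11b*, the osteoprotegerin gene, was at 207, 228 and 260 CPM, and its call with BGP (log2FC 0.14) was lost without Control library 2, BGP library 1 or BGP library 3. *Enpp3*, a relative of *Enpp1*, was low at 0.401, 1.17 and 0.928 CPM and was a DEG with both (log2FC 1.53, FDR 0.0161, and 1.2, FDR 0.0426, in edgeR). Its call with BGP was lost without Control library 1, Control library 3 or BGP library 1. Its call with NaHPO4 held in only 3 of 14 alternatives. That call was lost without any 1 of the 9 libraries, in the fit of only these conditions and with the replicate block. *Spp1* and *Tnfrsf11b* were thus highest with NaHPO4, where *Vdr* was lowest, while *Enpp1* and *Ank* were highest with BGP.

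Of the 10 genes of this list that passed between BGP and NaHPO4, 7 were, like *Vdr*, higher with BGP, and 3 were lower: *Spp1*, *Tnfrsf11b* and *Cebpd*. Among the 7, the *Enpp1* call was lost in DESeq2 (FDR 0.0981). *Fgf23* was at 1.2 CPM in Control, 8.39 CPM in BGP and 1.54 CPM in NaHPO4, and BGP exceeded NaHPO4 (log2FC 2.44 ± 0.189 (SE), FDR 1.14e-11 in edgeR). It was not shown to change with NaHPO4 (log2FC 0.35, FDR 0.496). *Bglap2* fell with NaHPO4 (-0.14, FDR 0.00591), as did *Bglap* (-0.15, FDR 0.0146) and *Lrp5*, a Wnt co-receptor (-0.15, FDR 0.00735), and each was higher in BGP than in NaHPO4. These calls with NaHPO4 were lost without Control library 3 for *Bglap2* and *Lrp5*, and without Control library 1, NaHPO4 library 2 or NaHPO4 library 3 for *Bglap*. For *Lrp5*, the call between BGP and NaHPO4 was lost without BGP library 1 or 3. *Cdkn1a*, a cell cycle inhibitor, was 465 CPM in BGP and 431 CPM in NaHPO4 (0.11, FDR 0.0452 in edgeR). This call held in 7 of 16 alternatives and was lost without Control library 1, any BGP library, or NaHPO4 library 1 or 2. Total counts, the fit of only these conditions and the replicate block lost it too. The *Bglap* genes are near-identical copies, so reads may be split between them. *Cebpb* fell with both treatments, at log2FC -0.26 with BGP and -0.27 with NaHPO4 (FDR 0.00196 and 0.000384 in edgeR). *Cebpd*, a related transcription factor, fell with BGP, where *Vdr* rose (51.9 to 40.7 CPM, -0.35, FDR 0.000159 in edgeR). With NaHPO4 it was at 47.2 CPM, and its log2FC against Control of -0.14 did not pass (FDR 0.142). It was lower in BGP than in NaHPO4 (-0.21, FDR 0.0224), with overlapping libraries. That last call was lost without BGP library 2 or 3 or NaHPO4 library 2 or 3. *Phex*, an endopeptidase of osteocytes, rose with BGP (34.7 to 41.6 CPM, 0.26, FDR 0.0333), a call that was lost in DESeq2 and without any 1 of the Control libraries, BGP library 1 or BGP library 3. *Tnfsf11*, the gene of RANKL, and the intestinal and renal calcium genes *Trpv5*, *S100g* and *Calb1* had 0 counts in every library.

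In the retinoid pathway, of 9 genes for retinoid uptake, binding and storage, 3 were tested and 0 passed in any comparison, while *Stra6*, the cell surface retinol transporter, and *Lrat*, which stores retinol as esters, had 0 counts. Of 13 genes for retinoic acid synthesis and clearance other than *Cyp26b1*, 9 were tested and *Dhrs3*, which reduces retinal back to retinol, was the only 1 that passed. It was at 16.3, 15.6 and 17.8 CPM in Control, 15, 16.3 and 16.1 CPM in BGP, and 10.6, 13.6 and 12.4 CPM in NaHPO4, so that all NaHPO4 libraries were below the others. It fell with NaHPO4 (log2FC -0.44 ± 0.0899 (SE), FDR 0.000984 in edgeR) and was higher in BGP than in NaHPO4 (0.37, FDR 0.00866), as were *Vdr* and *Cyp26b1*. The second of these calls was lost without NaHPO4 library 1.

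The other retinoic acid hydroxylases were scarce. *Cyp26a1* was at 0.573, 0.594 and 0.443 CPM and *Cyp26c1* at 0.272, 0.307 and 0.378 CPM in Control, BGP and NaHPO4, against 60.2 to 84.9 CPM for *Cyp26b1*. Of the retinaldehyde dehydrogenases, which make retinoic acid, *Aldh1a1* was at 5.32, 4.83 and 5.33 CPM and *Aldh1a2* had 0 counts in every library. Of 16 genes known to respond to retinoic acid, 10 were tested, and with BGP 0 passed. With NaHPO4 *Dhrs3* and *Tgm2*, a transglutaminase, fell and 0 rose. *Tgm2* was at 8.28 ± 1.04 CPM in Control and 5.54 ± 0.673 CPM in NaHPO4 and was a DEG (log2FC -0.59, FDR 0.00164 in edgeR). Between BGP and NaHPO4, *Dhrs3* was higher with BGP and *Meis2*, a homeobox gene, lower (39.1 against 44.7 CPM, log2FC -0.19, FDR 0.0228 in edgeR). The *Meis2* call was lost without BGP library 1 or 2 or NaHPO4 library 2 or 3. The median log2FC of the 10 genes was -0.08, -0.22 and 0.29 in the 3 comparisons, beside 0.00 over all tested genes.

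**Figure D4:**
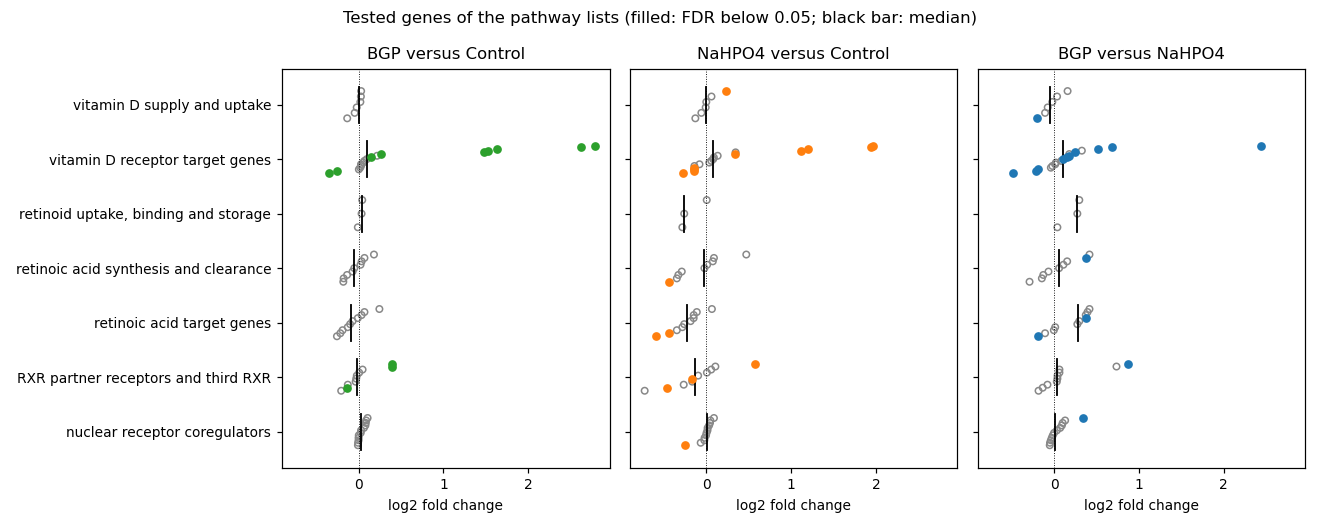
Log2 fold change (x axis) of every tested gene of 7 pathway lists (y axis), in a panel for each comparison; filled points have an FDR below 0.05, open points do not, and black bars are list medians. The 24 listed Vdr target genes, 17 of them tested, hold most of the filled points, up to a log2FC of 2.78 for Fgf23 with BGP, whereas the coregulators other than Hr lie near 0. The lists were drawn up with earlier results of these data known, so nothing is read from the number of filled points.

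Of 15 genes in a list of other receptors that pair with RXRs and *Rxrg*, 10 were tested, and with either treatment 3 passed. *Nr4a1*, an immediate early gene, had the same order as *Vdr*, at 18.1 CPM in Control, 23.8 CPM in BGP and 13 CPM in NaHPO4. It rose with BGP (log2FC 0.40, FDR 0.00419 in edgeR), fell with NaHPO4 (-0.47, FDR 0.000493) and was a DEG between them (0.87 ± 0.0876 (SE), FDR 7.12e-09). The thyroid hormone receptors moved apart from each other: *Thrb* rose with BGP (0.39, FDR 0.0276) and NaHPO4 (0.57, FDR 8.72e-05), and *Thra* fell with both (-0.13, FDR 0.0282, and -0.16, FDR 0.00133). With BGP, all 3 calls were lost without BGP library 1. The *Nr4a1* call was also lost without Control library 2, the *Thrb* call without Control library 1, Control library 2 or BGP library 2, and the *Thra* call without Control library 1, Control library 3 or BGP library 3.

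Few of the coregulators through which these receptors act changed. All 12 were tested, 0 passed with BGP, and with NaHPO4 only *Hr*, a corepressor that binds Vdr, fell (23.9 to 20 CPM, log2FC -0.25, FDR 0.0423 in edgeR). Its BGP libraries, at 25.3 CPM, were above those of NaHPO4 (0.34, FDR 0.00482), a call that was lost without BGP library 1 or NaHPO4 library 2. The call for *Hr* with NaHPO4 was lost in 7 of 16 alternatives: without Control library 1, BGP library 2, NaHPO4 library 1 or NaHPO4 library 2, in DESeq2, with total counts and in the fit of only these conditions.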

How the data were processed

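RNA sequencing of differentiated MC3T3-E1 cells was analysed in 9 libraries, grouped by the treatment given in the labels. The authors mapped paired reads from stranded polyadenylated libraries to GRCm39 with Ensembl annotation and deposited raw counts per gene. Aligner, counter and strand setting are not given in the sources used here, so reads of overlapping genes may be mixed: *Rarb* shares 2839 exonic bases with genes on the other strand, *Rara* 543, *Vdr* 124, *Rarg* 103 and *Cyp24a1* 83. The authors also deposited a TMM-scaled signal, the counts times 1 factor per library (1.01 to 1.32), and it was used only to look up gene names. No column belonged to other samples.

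From the counts, genes were filtered with filterByExpr (minimum count 10), which left 13679 of 55416, and fitted across all 9 libraries with glmQLFit and glmQLFTest of edgeR 4.0.16 with TMM scaling and Benjamini-Hochberg adjustment. A gene passed at an FDR below 0.05, and a DEG also needed an absolute log2FC above 0.5, as in the methods of the study. Standard errors come from the quasi-likelihood F statistic. The common coefficient of biological variation was 3.64%. For correlations, a prior count of 2 was added before taking log2 CPM. The fit was tested on simulated data beforehand. Exon lengths and positions came from GENCODE M39, and promoter sequences from the RefSeq table of GRCm38.p6, placed in GRCm39 by exact match.

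The 9 genes, the pathway and marker lists and the tests were chosen with earlier results of these data known. Named genes are the 9, any gene of a pathway list that passed in a comparison, and the 5 genes most correlated with each DEG among the 9. Further genes, such as those at 0 counts and the other Cyp26 enzymes, were named after their values were seen. Conditions share replicate numbers, but deviations of same-numbered libraries correlated only from -0.0092 to 0.0426, so libraries were not paired. The results were recomputed with DESeq2 1.42.0, with its size factors in edgeR, with total counts as library sizes, without a filter, with 10 or more counts required in every library, with a replicate block, with the 2 conditions of a comparison alone, and after leaving out single libraries. R 4.3.3 and Python 3.11.15 were used.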

Additional observations from a re-analysis of the deposited data

How the results depend on the processing

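*Vdr* passed in all 3 comparisons under all 16 alternatives, with log2FC from 0.20 to 0.34 (BGP against Control), -0.34 to -0.21 (NaHPO4 against Control) and 0.52 to 0.61 (BGP against NaHPO4). The number of the 7 genes past the FDR with BGP was 2, and 1 in DESeq2 and 1 to 2 with a library left out. With NaHPO4 it was 4, and 2 to 4 with a library left out. Of these 4, *Cyp26b1* dropped out in DESeq2, and *Rarg* with total counts and with no filter on low counts. The number of DEGs between BGP and NaHPO4 was 1, and 1 to 2 with a library left out. Of the log2FC values recomputed, 304 kept their direction and call, 14 lost the call and 18 changed sign, none of them called. *Rxra*, at -5.1e-06 with BGP, changed sign in the fit of 2 groups (0.00093), DESeq2 (0.00057), its size factors in edgeR (0.00058), with at least 10 counts in every library (0.00018), and between -0.02 and 0.01 with a library left out. With total counts *Rxra* gave 0.0071 for NaHPO4 and -0.0098 for BGP against NaHPO4, and with a library left out it lay from -0.05 to 0.01 and from -0.01 to 0.05. *Cyp27b1* with BGP lay between -0.08 and 0.15 with a library left out. With the replicate block, *Rxra* with BGP was at 0.00025, and the numbers of genes past the FDR were again 2, 4 and 2. The numbers do not pair the libraries: 1 of 9 correlated best with its own number. Of the recomputed counts of genes past the FDR in the pathway lists, 316 stayed within 1.5 times the value reported and 20 did not, 12 of them in the coregulator list. The causes were not tested. *Rarb* and *Cyp24a1* gave no value in any setting with a filter. Depth limits *Cyp27b1*, *Rarb* and *Cyp24a1*.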
